A study of Schizosaccharomyces pombe with 8 samples.

Results

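The outer 100 kb at each end of chromosomes I and II of fission yeast (Schizosaccharomyces pombe), 4 subtelomeric arms in all, were examined for the ligation of their DNA to itself and to the rest of the genome in meiosis. A ligated pair of DNA ends was taken when at least 1 end lay in such an arm, that is up to position 100000 or above 5479133 on chromosome I, and up to 100000 or above 4439804 on chromosome II. Pairs whose ends both lay within 500 bp of those of another pair were merged into 1 ligation event. The arms took part in 1561 of 35511 events (4.40%, exact 95% interval 4.18 to 4.61) in the interacting library. They took part in 2345 of 56018 events (4.19%, 4.02 to 4.36) in the de-crosslinked library. These events came from 4284 of 101984 and 5088 of 123434 deposited pairs.

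Both libraries were made from pat1-114 rec12D cells with Rec27 tagged by GFP. The pat1-114 allele is temperature sensitive and lets meiosis start in synchrony after a shift to 34 °C. The rec12 deletion, which both libraries carry, takes away the protein needed for meiotic DNA breaks. Cells were starved of nitrogen for about 18 h and collected 3.5 h into meiosis, and 500 mL of culture was fixed with 1% formaldehyde. In the interacting library the immunoprecipitated chromatin was ligated with its crosslinks in place, and in the de-crosslinked library the purified DNA was ligated after they had been removed. There was 1 library of each kind, so every test below compares those libraries and not replicated conditions, and its intervals cover counting error only. The other 6 samples of the series were not analysed here.

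Rec27 belongs to the linear elements, protein structures that form along fission yeast chromosomes in meiotic prophase in place of a full synaptonemal complex. Linear elements gather at sites where meiotic recombination is frequent. In the same stage of meiosis the telomeres of all chromosomes are known to be bundled at the spindle pole body, an arrangement called the bouquet. Subtelomeres hold silenced chromatin next to the telomere repeats, long stretches of DNA copied between chromosome ends, and many genes for nutrient uptake.

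Much of the arms' DNA is copied, and this bears on every count below. Self alignment of the reference assembly found a copy elsewhere, at 80% identity or more over at least 200 bp, for 42.0% of the arms' bases against 5.38% of the genome. The longest shared stretch between arms of different chromosomes ran over 15417 bp at 98.6% identity, between the left arms of I and II. Stretches of 13904 bp at 97.5% identity joined I left to II right. Words of 50 bp that occur nowhere else covered 65.4% of the arms and 96.3% of the genome. Of the ends placed inside the assembly, 0 fell outside such unique DNA, so densities are given per kb of unique DNA. At the right end of chromosome II, 72 interacting and 35 de-crosslinked pair ends, from 2 and 3 event ends, lay up to 22 bp past the last base of ASM294v3. The authors' build is not given in the sources used here, and positions at that tip carry this doubt.

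The sequences below are shown because they carry joins between arms of different chromosomes that were present in both libraries. The first pair lies on plus strands of chrI:5489456-5489575, in cat1, and chrII:80041-80160. The capital marks the lower median position of the 40 interacting pairs at that end, and is not a junction resolved to the base. These stretches have no alignment with each other at the limits given above for a copy.
cat1 on I right: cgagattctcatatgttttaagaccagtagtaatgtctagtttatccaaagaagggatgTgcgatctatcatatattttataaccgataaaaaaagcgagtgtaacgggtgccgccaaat
II left: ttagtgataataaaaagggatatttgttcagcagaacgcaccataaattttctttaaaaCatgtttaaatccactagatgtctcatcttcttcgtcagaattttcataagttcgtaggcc

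The other joined pairs lie on copies of 1 sequence, and are shown to let the likeness of the copies be read base by base. The first runs from chrI:6235-6354 on the plus strand to the matching place at chrII:4526194-4526312 on the minus strand, and the capital is 1 base that the copy lacks. The end joined on chromosome II, at 4526162, lies just outside this matching stretch. The second runs from chrI:5564820-5564939 to chrII:4502565-4502684, both plus strands, and capitals mark the 2 bases that differ. All coordinates are of the assembly ASM294v3 and all sequences are its own.
I left tip: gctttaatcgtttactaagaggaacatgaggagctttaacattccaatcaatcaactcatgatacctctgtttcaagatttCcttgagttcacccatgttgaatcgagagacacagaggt
II right copy: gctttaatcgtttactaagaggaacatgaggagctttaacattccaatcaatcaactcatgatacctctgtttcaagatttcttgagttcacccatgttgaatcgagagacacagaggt
I right between ftm3 and ftm4: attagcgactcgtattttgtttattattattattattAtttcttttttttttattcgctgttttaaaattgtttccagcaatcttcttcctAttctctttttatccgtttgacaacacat
II right between ftm7 and SPBPB2B2.18: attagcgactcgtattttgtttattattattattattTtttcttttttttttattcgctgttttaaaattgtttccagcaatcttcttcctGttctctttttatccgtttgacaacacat

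The arms as a whole held about their part of the unique genome. They make up 2.16% of unique bases and held 2.36% of interacting and 2.16% of de-crosslinked event ends. The share of events with an end in an arm gave an odds ratio between the libraries of 1.05 (0.985 to 1.12), which did not pass Fisher's exact test (two-sided p = 0.127, 0.272 after Benjamini-Hochberg adjustment over 15 tests). An event in the arms was made of 2.74 and 2.17 pairs on average, against 2.88 and 2.20 elsewhere.

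The 4 arms differed among themselves. The right arm of II held 668 and 1061 event ends on 61.7 kb of unique DNA, or 10.8 and 17.2 ends per unique kb, above each of the 96 internal 100 kb segments of chromosomes I and II in both libraries. The left arm of I held 394 and 583 ends, or 6.91 and 10.2 per unique kb. The right arm of I held 325 and 464 ends, or 3.97 and 5.66 per unique kb, below all 96 segments in both libraries. The left arm of II, with 288 and 311 ends, or 4.72 and 5.09 per unique kb, was below 88 segments in the interacting library and below all 96 in the de-crosslinked one. The segments had medians of 5.54 and 8.64.

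**Figure D1:**
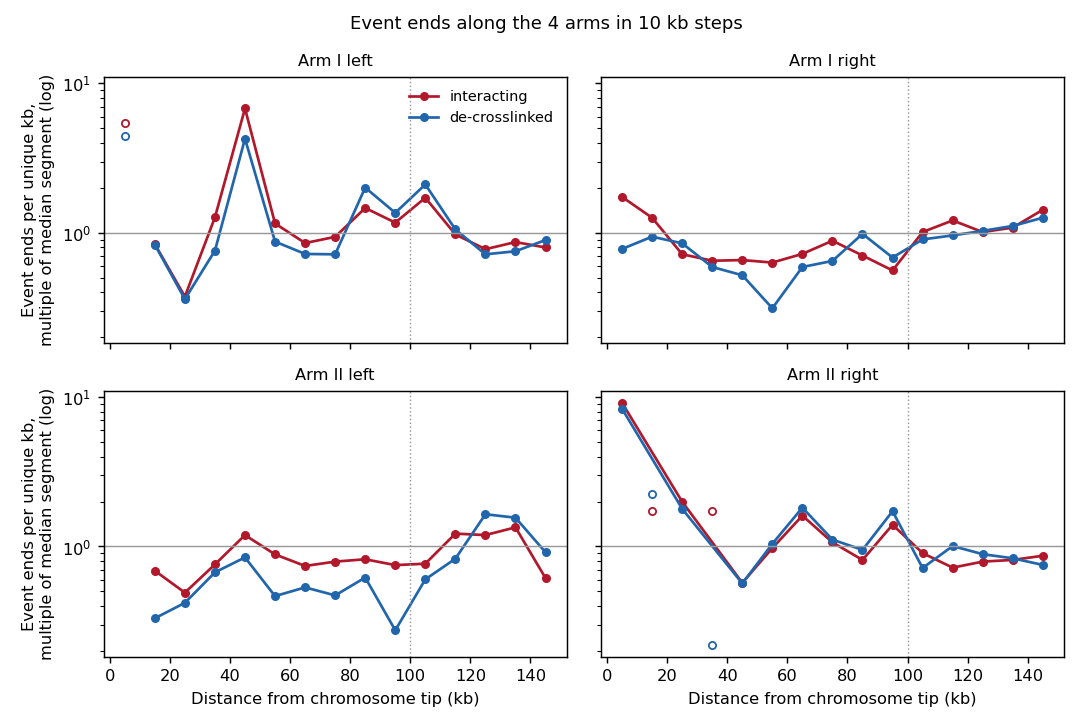
Event ends per unique kb in steps of 10 kb from the chromosome tip, as a multiple of the median internal segment on a log axis, for each arm and library; open symbols mark steps with under 1 kb of unique DNA, the dotted line the 100 kb limit, and steps with no unique DNA have no symbol. The outermost step of II right stands highest among steps with at least 1 kb of unique DNA, at 9.14 times the median segment in the interacting library, and I right and II left lie under 1 over most of their length.

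The excess on II right lay mostly at the tip itself, beyond tlh2, a gene for a RecQ-type helicase linked to telomeres. From the tip inwards, the first 8 kb held 27, 37, 109, 40, 37, 43, 15 and 2 ends in the interacting library. They held 34, 49, 121, 60, 90, 58, 26 and 4 in the de-crosslinked library. The window from 4537001 to 4538000, with 95 and 92 ends, was 26.8 and 18.6 times the median 1 kb window and ranked 1 and 14 in the genome. The tip was thus dense in both libraries. In the assembly tlh1 starts at base 1 of chromosome I, so only II right holds DNA beyond a helicase gene of this kind. Unique there means unique in the assembly. Whether ends from like DNA at other tips were placed on II right was not tested. The helicase genes tlh1 and tlh2 had too little unique DNA to be measured.

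The most frequented 100 bases of that tip, chrII:4537336-4537435 on the plus strand with 21 and 24 ends, are shown as its stretch with most ends, a small part of the 310 and 442 ends in the last 10 kb.
II right tip: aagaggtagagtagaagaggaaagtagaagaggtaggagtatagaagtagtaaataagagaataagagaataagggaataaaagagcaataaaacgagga

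Copied DNA in the arms was denser in ends than single-copy DNA. Its unique parts held 12.0 and 14.5 ends per unique kb, 2.17 and 1.68 times the median segment, and single-copy DNA held 5.66 and 8.56. Without the last 10 kb of chromosome II, copied DNA held 8.85 and 10.6, or 1.60 and 1.23 times the median segment. Single-copy DNA then held 4.90 and 7.38, or 0.885 and 0.854 times. The unique parts of copied DNA come to 30.4 kb, in short stretches, so their density rests on few places.

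Windows of 1 kb that reached 3 times the median window's ends were no more common in the arms than elsewhere in the interacting library. There were 8 of 241 in the arms (3.32%), against 3.84% of all windows. In the de-crosslinked library there were 14 (5.81%) against 4.32%. The right arm of II held 6 and 10 of them, the left arm of I held 1 and 3, the left arm of II held 1 in each library, and the right arm of I held none.

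Windows with too little unique DNA were not measured. The densest measured windows of II right lay in its tip, and none outside it is named here. Those of the other arms lay in or beside the following genes. They do not cover the step from 40 to 50 kb on I left. That step had 48 and 47 ends on 1.28 kb of unique DNA, or 37.6 and 36.8 per unique kb. On I left the window from 82001 to 83000 had 25 and 60 ends (5 and 8.57 times the median window). It lies mostly outside ght3, a gluconate transporter gene of the hexose transporter family that had 14 and 19 ends over its own length. The window from 86001 to 87000, which overlaps part of shu1, a gene for a heme-binding uptake protein, had 8 and 22 ends, and shu1 itself had 7 and 5. On II left the window from 46001 to 47000 had 32 ends in each library (6.40 and 4.57 times the median). It overlaps SPBPB8B6.02C, annotated as a urea transporter, which ends at 46831 and had 12 and 15 ends over its length. Most of the window's ends thus lay outside that gene, between it and grt1. The window in the hexose transporter gene ght7 had 14 in each library. On I right the window between SPAC750.01 and SPAC750.02C had 14 and 18 ends. Those in cat1, an arginine and lysine transporter gene, and put4 had 10 and 12, and 4 and 16. None of these on I right reached 3 times the median.

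Over whole genes, the median density in the arms was below that outside them in the interacting library, for each list below that has members outside. Of 124 protein-coding genes in the arms, 69 had enough unique DNA to be measured, with medians of 4.11 and 7.07 ends per unique kb, and 4.88 and 7.49 outside the arms. Transporters, of which 11 of 20 were measured, had medians of 5.13 and 10.2, against 6.19 and 9.64 for those outside. The 3 galactose genes gal1, gal7 and gal10, whose enzymes bring galactose into glycolysis, had a median of 4.11 and 8.22. The siderophore transporter gene str3 stood at 1.91 and 11.5, against 8.69 and 19.6 for the iron uptake genes outside, and was the lowest of the arms' measured transporters in the interacting library. The hexose transporter genes ght3 and ght7 had a median of 9 and 11.1, against 9.63 and 18.8 for the others. Of the 160 measured long noncoding RNA genes the median was 4.41 and 6.64, and outside 4.6 and 7.27. The 8 measured dehydrogenases and reductases had 3.51 and 5.41, against 4.95 and 7.37 outside. The 6 measured pseudogenes had 3.47 and 4.42, against 8.16 and 9.53 outside.

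The hot or cold label that the authors gave to every end divided the arms by distance from the tip. In the outer 50 kb, 0 of 700 interacting and 0 of 941 de-crosslinked ends were hot. Counting error alone would allow shares of up to 0.429% and 0.319%. Hot ends lay in runs along the DNA, so nearby ends are not independent, and these limits do not cover that. In the inner 50 kb, 51.7% and 59.6% of ends were hot. The hot end nearest to a tip lay 57824 and 57745 bp away. The dense tip of II right was cold throughout. Of the 1 kb windows in the genome with at least 3 times the median, 78.2% and 85.6% were mostly hot. The 5 such windows in the last 10 kb of chromosome II, in each library, lie in the outer 50 kb and so held no hot end. The rule by which the authors set the class is not given in the sources used here.

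**Figure D2:**
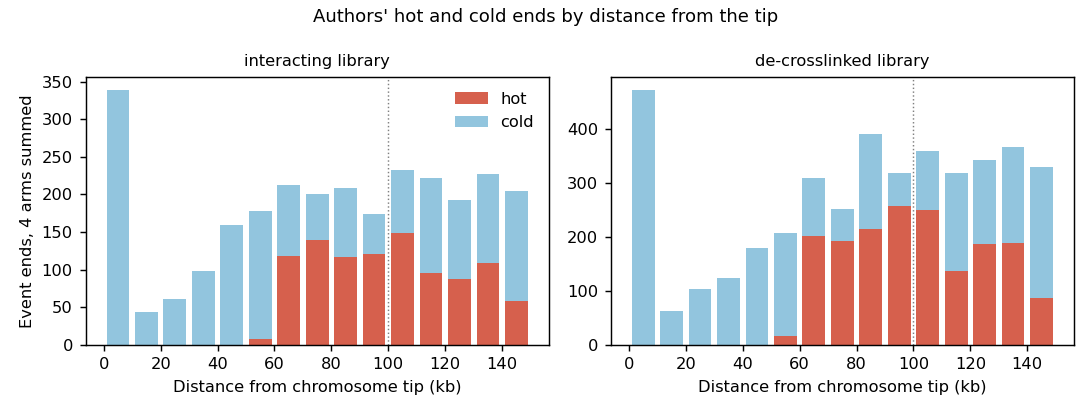
Event ends summed over the 4 arms in steps of 10 kb from the chromosome tip, split into the authors' hot and cold ends, for each library; the dotted line is the 100 kb limit. Ends within 50 kb of a tip are all cold, and the first hot ends appear at 57824 and 57745 bp.

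Hot ends made up 504 of 1675 arm ends (30.1%, 27.9 to 32.3) with crosslinks in place. After their removal they were 881 of 2419 (36.4%, 34.5 to 38.4). The odds ratio between the libraries was 0.751 (0.656 to 0.860; Fisher's exact test, two-sided, adjusted p = 9.97e-05). The rest of chromosomes I and II also had the lower share in the interacting library, 35.7% against 39.1%. The arms' odds relative to that rest were 0.775 and 0.894, and these differed by Zelen's exact test (p = 0.0400, not adjusted).

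Hot DNA was spread unevenly over the arms. On I left 58.1% and 67.9% of ends were hot, on II right 31.4% and 37.4%, on I right 10.2% and 11.6%, and on II left 11.1% and 10.9%. The median internal segment had 34.2% and 37.4%. A run was at least 5 hot pair ends, over both libraries, with no cold end between them. Of 11 such runs, 5 lay on I left, among them one of 10554 bp over ght3, shu1 and str3. Another, over hhy1, isp3 and pfl8, was cut by the 100 kb limit and spanned 8248 bp inside it. From 100 to 110 kb on I left, all 95 and 182 event ends were hot. The 3 runs on II right held one of 13720 bp from SPBPB2B2.05 to SPBPB2B2.08 and one of 9501 bp over ecl3 and the phosphate genes pho84, a transporter, and pho1, an acid phosphatase. The 2 runs on I right were at SPAC922.04, beside the 100 kb limit, and at hry1 and sul2, and the single run on II left was at SPBPB10D8.01.

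The left arm of II took a larger share of ends in the interacting library than in the de-crosslinked one. Its share was 0.406% of all event ends against 0.278%, a ratio of 1.46 (odds ratio 1.46, 1.24 to 1.72; Fisher's exact test, two-sided, p = 1.77e-05 adjusted over the 4 arms). All 96 internal segments had a lower ratio, between 0.792 and 1.23. The ratios of I left, I right and II right were 1.07, 1.10 and 0.993, with adjusted p of 0.432, 0.351 and 0.901. Among cold ends alone the ratio was 1.38 for II left and 1.32 for I left, both above the 96 segments, whose highest was 1.22. It was 1.07 for I right and 1.03 for II right.

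In windows of 10 kb, 3 of 25 in the arms (12%) had a ratio of 1.5 or more, against 2.95% of all windows. None had a ratio of 1/1.5 or less, against 2.38%. The 3 windows held SPAC869.01 and pfl9, a cell-surface glycoprotein gene, on I right (38 and 27 ends, ratio 2.22), fex2 and the enolase gene eno102 on II left (39 and 32, 1.92), and aes1 on II left (41 and 38, 1.70). The median window had a ratio of 1.14 in the arms and 1.02 over the genome. These counts have no replicate check.

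Joins within an arm, at least 5 kb apart, were more frequent with crosslinks in place. There were 48 among the 1561 interacting events (3.07%, 2.28 to 4.06) and 9 among the 2345 de-crosslinked ones (0.384%, 0.176 to 0.727). Against joins of the arms to other chromosomes, 880 and 1406, the odds ratio was 8.51 (4.11 to 19.8; Fisher's exact test, two-sided, adjusted p = 4.82e-11). Joins of 2 to 5 kb were 24 and 27. The shares of partners within 200 kb outside the arm were 4.36% and 1.32%, and those of partners farther off on the same chromosome 35.6% and 38.0%.

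Each arm had more of these joins in the interacting library. Counts were 12 and 0 on I left (adjusted p = 2.84e-05 over the 4 arms by Fisher's exact test), 6 and 1 on I right (0.0219) and 27 and 8 on II right (5.66e-06). On II left they were 3 and 0, which did not pass (0.0936). Of the 48 joins, 21 had both ends hot, 15 had 1 hot end and 12 had none. Of the 9 joins without crosslinks 0 had both ends hot. No end in the outer 50 kb was hot, so only joins inside the inner 50 kb could have both ends hot. These were 39 of the 48 and 3 of the 9, which are too few in the de-crosslinked library for a comparison. The median distance was 14960 bp among the 48 and 49846 bp among the 9.

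Joins with both ends hot lay on I left and II right. On I left 8 of 12 had both ends hot, for example at 67535 and 83571 bp from the tip (7 pairs) and at 66329 and 82671 bp (5 pairs), each from the run at dak2 and SPAC977.17 to the one at ght3. On II right 13 of 27 had both ends hot, for example at 72389 and 94552 bp (7 pairs), from the run at SPBPB2B2.05 to SPBPB2B2.08 to the one at pho84. The join of II right with most pairs, 24, lay at 55391 and 80918 bp and had 1 hot end. On I right and II left, with 6 and 3 joins, none had both ends hot. Of all interacting ends, 58.1% were hot on I left and 31.4% on II right, against 10.2% on I right and 11.1% on II left. Whether joins with both ends hot departed from what these shares give was not tested.

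Relative to their joins to other chromosomes, the pooled arms showed no detectable difference from internal segments in joins with themselves. The arms had 63.5 such joins per 1000 joins to other chromosomes on I left, 37.5 on I right, 18.6 on II left and 73.0 on II right in the interacting library. The 96 segments ran from 18.9 to 128 with a median of 66.6, so that only II left lay outside their range, on 3 joins. Pooled, the odds ratio of arms to segments was 0.802 (0.585 to 1.08; Fisher's exact test, two-sided, p = 0.151) with crosslinks in place and 0.905 (0.410 to 1.74; p = 1.00) without them. The libraries' ratios did not differ by Zelen's exact test (p = 0.701). This is not evidence of likeness. Some other settings, given in the last section, put the interacting odds ratio lower, and the outer and inner 50 kb differed from segments in opposite directions.

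**Figure D3:**
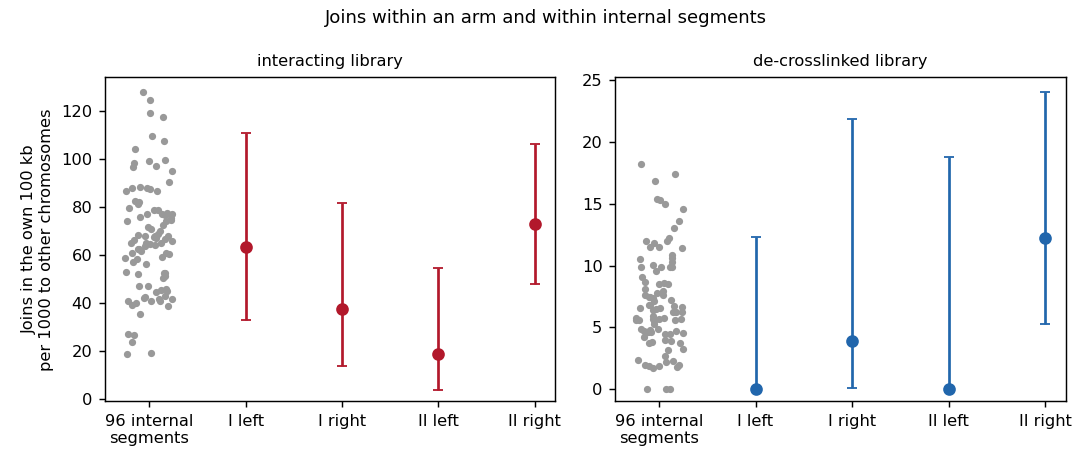
Joins within the own 100 kb, at least 5 kb apart, per 1000 joins to other chromosomes, for 96 internal segments (grey points, spread sideways for sight) and each arm (coloured, with the exact Poisson 95% interval of the joins); the libraries have separate vertical scales. In the interacting library I left (63.5) and II right (73.0) lie amid the segments and II left (18.6) just under the lowest of them (18.9).

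On this measure, relative to joins to other chromosomes, the outer and inner parts of the arms went different ways in the interacting library. The outer 50 kb had 5 joins within themselves, 11.8 per 1000 joins to other chromosomes, against 45.3 in internal 50 kb segments (odds ratio 0.260, 0.0837 to 0.612; Fisher's exact test, two-sided, p = 0.00102 adjusted over 4 tests). The inner 50 kb had 39, or 85.7 per 1000 (odds ratio 1.89, 1.32 to 2.64; exact test, adjusted p = 0.00102). In the de-crosslinked library these numbers were 1 and 3 joins, with p of 0.730 and 1.00.

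The outer 50 kb of the 4 arms hold 76.6 kb of unique DNA and the inner 50 kb hold 185 kb. The part of unique DNA in the low figure of the outer 50 kb was not tested. When the ends present were paired with each other by distance, at the rate seen in internal segments, 5.61 joins would have been counted in the outer 50 kb and 5 were (ratio 0.891, 0.289 to 2.08). In the inner 50 kb 20.3 would have been counted and 39 were (1.92, 1.36 to 2.62). Over all 4 arms the ratio was 1.21 (0.896 to 1.61) in the interacting and 1.31 (0.598 to 2.48) in the other library, above 1 where the odds ratios relative to other chromosomes, 0.802 and 0.905, were below it. By arm the interacting ratio was 1.62 (1.07 to 2.36) on II right, 1.19 on I left, 0.877 on I right and 0.504 on II left, where the intervals of the last 3 included 1. On this scale the interval of the outer 50 kb included 1 and that of the inner 50 kb did not.

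Joins between an arm of chromosome I and an arm of chromosome II were more frequent than the ends' own numbers give, in both libraries. The interacting library had 28 where 9.85 would come from the numbers of ends in and out of the arms (odds ratio 3.23, 2.07 to 4.88; Fisher's exact test, two-sided, adjusted p = 4.18e-06). The de-crosslinked library had 29 where 12.0 would (2.63, 1.72 to 3.89; exact test, adjusted p = 7.72e-05). The libraries' odds ratios did not differ by Zelen's exact test (adjusted p = 0.549), so no excess with crosslinks in place was detectable over that without them.

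These joins were mostly of 1 combination of arms. I left to II right had 16 and 15 events against 3.64 and 4.66 from the ends (4.39 and 3.22 times). Of these, 9 and 6 lay at matching places of copied DNA, which are described below. I right to II right had 7 and 10 (3 and 4 at such places), I right to II left 3 and 4 (1 and 1), and I left to II left 2 and 0 (0 and 0). Without the right arm of II the odds ratios were 1.85 (p = 0.205) and 1.49 (p = 0.353) by the same exact test.

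**Figure D4:**
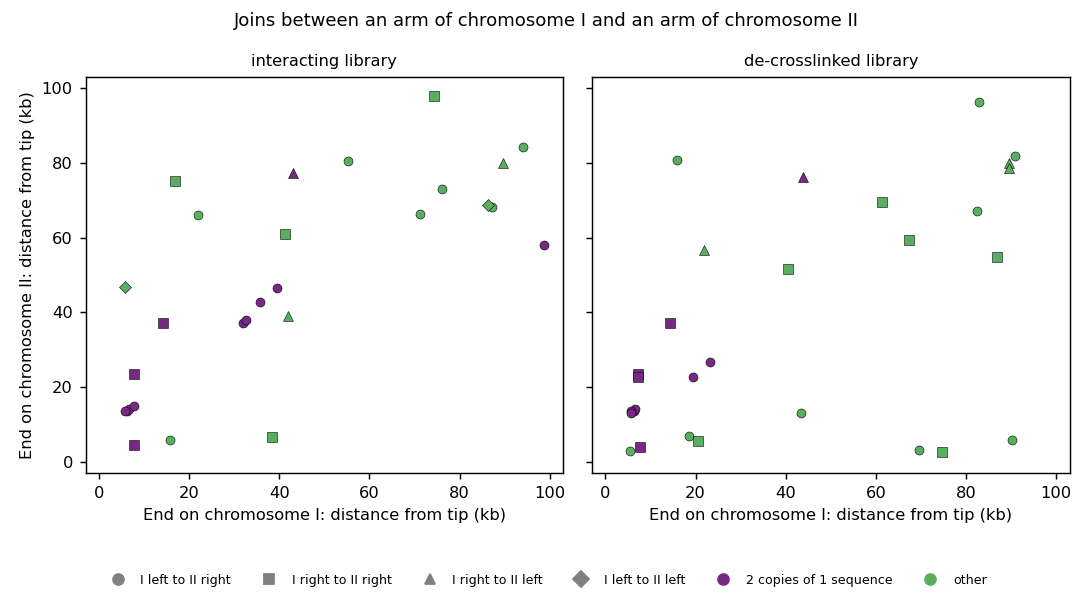
Distance from the tip (kb) of both ends of each join between an arm of chromosome I and an arm of chromosome II, for each library; symbols give the pair of arms and purple marks joins between 2 copies of 1 sequence. Of the 28 and 29 joins, 13 and 11 are purple, and most of those lie within 40 kb of both tips.

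A large part of these joins lay at matching places of copied DNA. In 13 of 28 (46.4%) and 11 of 29 (37.9%) both ends lay on the sides of 1 self alignment, the second within 1000 bp of the place that matches the first. Among joins of the arms to the rest of the other chromosomes this was so in 12 of 824 and 12 of 1348 (Fisher's exact test, two-sided, adjusted p = 3.49e-14 and 9.95e-14 over 4 tests). With such joins left out the odds ratios fell to 1.76 (0.956 to 3.0; exact p = 0.0539) and 1.66 (0.962 to 2.68; exact p = 0.0454). With every end near copied DNA left out they were 2.98 (1.38 to 5.76; exact p = 0.00334) with crosslinks in place and 1.53 (0.650 to 3.11; exact p = 0.261) in the de-crosslinked library. Whether a join between copies was a ligation or a read placed on the wrong copy was not tested.

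Counted as separate events, joins between arms came up in both libraries more often than others, mostly through joins on copies. Of the arm to arm joins, 5 of 28 and 5 of 29 had a match within 500 bp at both ends in the other library, against 24 of 824 (2.91%) and 24 of 1348 (1.78%) of the joins from arms to elsewhere (Fisher's exact test, two-sided, adjusted p = 0.00182 and 3.22e-04). Of those 5, 4 lay on copies. The one with most pairs of these, whose I left stretch and its copy on II right are shown above, joined 6294 in the pseudogene SPAC212.10 to 4526162, by 15 and 10 pairs, at 99.7% identity of the copies. A second joined 6640 to 4525629 by 8 and 4 pairs, another 5564879 to 4502675 by 8 and 3, and the last 5704 to 4526170 by 1 and 1. The joins at 5704, 6294 and 6640 lie close together on both chromosomes, and only the 500 bp limit kept them apart. The exact tests counted them as independent, so the recurrence rests on fewer places than joins. Of the arm to arm joins not between copies, 1 of 15 (6.67%, 0.169 to 31.9) and 1 of 18 (5.56%, 0.141 to 27.3) recurred. Those intervals include the shares for joins from arms to elsewhere.

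The fifth recurrent join had no alignment between its ends. It linked 5489515 in cat1 on I right to 80100 on II left, between SPBPB21E7.09 and SPBPB10D8.01, by 40 and 27 pairs, and the libraries placed its ends within 12 bp of each other. In the genome 4 joins between chromosomes had at least 20 pairs in both libraries, and this was the only one of them in the arms. The arm to arm join with most pairs in the interacting library behaved otherwise. It linked 5537156, between SPAC186.03 and SPAC186.04C, to 39153 in ght7 by 122 pairs, and had 0 pairs in the de-crosslinked library.

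Opposite ends of 1 chromosome were joined 14 and 9 times. In the interacting library this was above the 5.51 that the ends give (odds ratio 2.84, 1.48 to 5.07; Fisher's exact test, two-sided, adjusted p = 0.00329). In the de-crosslinked library the 9 stood against 6.23 and did not pass (1.48, 0.659 to 2.91; exact p = 0.297). The difference between the libraries did not pass Zelen's exact test (p = 0.184). Of these joins 5 of 14 and 2 of 9 lay on copies of 1 sequence, and without them the odds ratio in the interacting library was 1.87 (0.820 to 3.74; exact p = 0.101). One of those on copies, from SPAC977.14C on I left to SPAC750.01 on I right, was found in both libraries with 2 and 4 pairs.

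**Figure D5:**
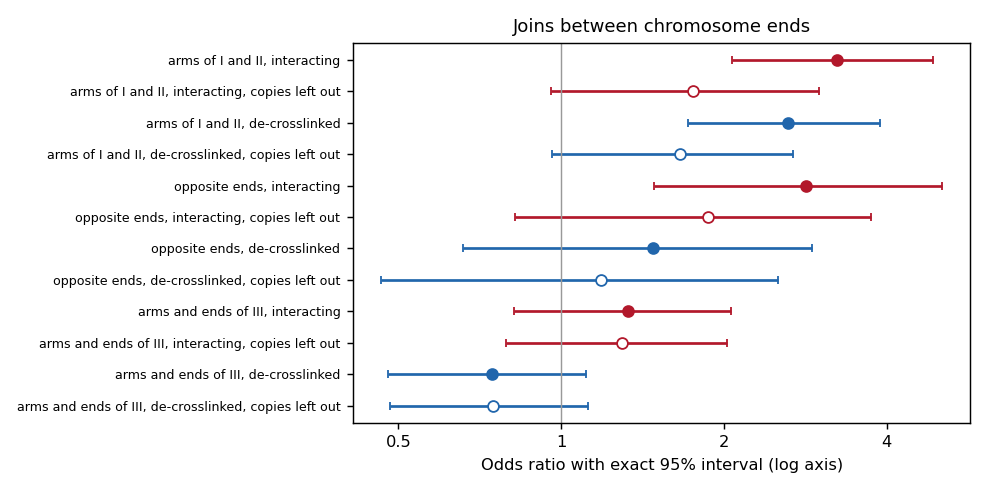
Odds ratios with exact 95% intervals, on a log axis, for joins between arms of chromosomes I and II, between opposite ends of a chromosome, and between the arms and the outer 100 kb of chromosome III; filled symbols count all joins and open symbols leave out joins between copies of 1 sequence. Leaving those out moves the arms of I and II from 3.23 to 1.76 in the interacting library and from 2.63 to 1.66 in the de-crosslinked library.

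Joins of the arms to the outer 100 kb of chromosome III numbered 23 and 26. Their odds ratios of 1.33 (0.818 to 2.06; p = 0.211) and 0.744 (0.478 to 1.11; p = 0.174) did not pass Fisher's exact test, nor did their difference pass Zelen's (p = 0.0589).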

How the data were processed

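Ligated pairs of 2 Rec27-GFP libraries were analysed. Per the labels' protocols, chromatin was sheared to about 1000 bp and libraries were made from fragments of about 300 bp. The deposited tables give the chromosome, position and hot or cold class of each end. The submitters' processing notes name CASAVA 1.8.0. How ends were aligned, on which build, and how hot was defined are not given in the sources used here. Of the ends placed inside ASM294v3, 0 fell in DNA without a unique 50 bp word, against 1243 and 1269 interacting ends after moving positions by -100 and 100 bp.

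Pairs were counted as events from the deposited tables, because 1 junction can yield many pairs. Single-pair events made up 63.9% and 62.5%. An event's end was the lower median of its pairs' positions and its class that of most of them. Copies were found with BLAST 2.17.0 (word size 16). Windows of 1 kb needed 70% unique DNA, and windows of 10 kb needed 5 unique kb and 20 ends. Genes needed 50% unique DNA. Odds ratios are conditional, with exact intervals (scipy 1.17.1). Tests treat events as independent, and an event joining an arm to an internal segment counts at both. The code was tested on simulated data. Intervals are Clopper-Pearson or Poisson, and limits for a count of 0 are 3 counts; they cover counting error only.

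The members and gene lists were chosen with earlier results of these data known. Genes are named from the 4 densest 1 kb windows per arm, fixed lists, and the 10 joins between arms with most pairs. Set after these data were seen were the joins between copies and their omission, the omission of the last 10 kb of chromosome II, the inner 50 kb, recurrence between libraries, the ratios by arm and combination of arms, the pairing of ends present, the runs of hot ends, the examples of joins within arms, and the sequences printed. No untagged or input library was used.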

Additional observations from a re-analysis of the deposited data

How the results depend on the processing

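Of 132 recomputed values, 97 kept their direction and their side of the 0.05 threshold or, for counts of windows, stayed within 1.5 times; the cause of the other changes was not tested. The share of events in the arms gave an odds ratio of 1.15 (exact p = 0.00797) for the outer 50 kb and 0.985 (exact p = 0.570) for the outer 150 kb. Joining within an arm gave 6.54 (exact p = 0.0912) for the outer 50 kb. The odds ratio of 8.51 rose to 17.9 without the last 10 kb of chromosome II and to 17.4 without ends near copied DNA. It fell to 3.19 from 2 kb on and to 3.65 from 20 kb on. 

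Against internal segments, the interacting odds ratio of 0.802 was 0.623 (exact p = 1.94e-09) with every pair counted, 0.260 (exact p = 4.18e-04) for the outer 50 kb, 0.583 (exact p = 0.0142) without ends near copied DNA, 0.599 (exact p = 0.0428) from 20 kb on and 1.14 (exact p = 0.161) for the outer 150 kb. The de-crosslinked one turned to 1.01 with every pair counted, 1.09 from 2 kb on and 1.22 from 20 kb on. Their ratio was 0.619 (exact p = 0.0406) with every pair counted, 1.30 for the outer 150 kb, 1.77 without ends near copied DNA and 1.86 without the last 10 kb of chromosome II.

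For the arms of I and II, the odds ratio was 1.85 and 1.49 without II right, 1.53 in the de-crosslinked library without ends near copied DNA and 1.76 in the interacting one without joins between copies. The ratio between libraries was 3.34 (exact p = 8.27e-17) with every pair counted, 0.861 for the outer 50 kb, 0.918 without I left and 0.726 without hot ends. For opposite ends it was 2.00 (exact p = 0.0239) at 150 kb, and the interacting odds ratio without joins between copies was 1.87. For the ends of chromosome III, counting every pair gave 2.25 and 0.647 with a ratio of 3.48, and 150 kb gave 1.44 with a ratio of 1.65. Pairs of 1 event are not independent, so p-values over every pair are too small: 122 of them came from 1 join.

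With every pair counted, 26 windows of 1 kb were high in the interacting library, and 8 and 4 windows of 10 kb were higher and lower. The stricter limits left 9 high windows of 1 kb in the de-crosslinked library and 1 higher window of 10 kb. The outer 50 kb gave no odds ratio for the hot class, since no end there was hot. No paired analysis was possible because each group had 1 library. Counts of joins between arms, under 30 in each library, limit what could be detected.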
